A study of Mus musculus with 8 samples.

Results

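Ribosomal protein genes mostly act as single copies in mammals, but a few have a second functional gene, a paralog, whose product can take the same place in the ribosome. The 10 genes described here form 5 such pairs of a widely expressed gene and its paralog: Rps27 with Rps27l, Rpl22 with Rpl22l1, Rpl3 with Rpl3l, Rpl39 with Rpl39l, and Rpl36a with Rpl36al. They were taken by symbol from a table of 52778 rows, where each stands on 1 row of a primary chromosome. RNA was sequenced from ventricular heart tissue of mouse embryos at embryonic day 11.5. The 4 conditional knockout (cKO) libraries came from Rps19bp1 fl/fl; Xmlc2-Cre +/- embryos, in which the Cre recombinase removes the floxed gene in cardiomyocytes, so other cells of the ventricle keep it. The 4 control libraries are labelled only as control, without a statement of which alleles they carry, and a genotype field names wild-type C57BL/6 for all 8 libraries. The extraction text speaks of neurons in culture, whereas the other labels speak of ventricles, and the RNA kits named also differ. The replicates are described as biological, without saying whether a library is 1 embryo or a pool. The Rps19bp1 product, also called AROS, is found in the nucleolus and is known as a partner of Rps19 and Sirt1, and the comparison asks what its loss in cardiomyocytes changes.

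Values are TPM, a transcript abundance scaled to the same total in each library, which divides reads by transcript length, so that levels can be compared between genes. The design text gives only an approximate sequencing depth and the reads behind each value are unknown, and the precision given is that between libraries. The targeted gene stood at 15.0 ± 3.14 TPM in cKO and at 39.9 ± 3.93 TPM in control (SD, n = 4 each), without overlap. Of 12 cardiomyocyte markers, 12 reached 1 TPM. They summed to 30583 to 32114 TPM in cKO and 31074 to 34366 TPM in control, with overlap. Of 6 neuronal markers, Tubb3 and Nefl reached 1 TPM, and Snap25, Syt1, Rbfox3 and Slc17a7 stayed under it in every library. The 6 summed to 11.5 to 15.4 TPM in cKO and 8.15 to 14.7 TPM in control, with overlap. The summed markers of endothelial (664 to 753 against 616 to 662 TPM), epicardial (306 to 385 against 249 to 281 TPM) and mesenchymal cells (726 to 918 against 519.7 to 639 TPM) were higher in every cKO library than in every control library. The summed erythroid (1343 to 2894 in cKO against 1514 to 5534.5 TPM in control) and macrophage markers (9.10 to 26.9 against 9.10 to 16.9 TPM) overlapped. Mitochondrial transcripts took 13.2% to 16.2% of TPM in cKO and 11.4% to 12.2% in control. Fits after rescaling without mitochondrial and globin rows are given below. Beyond this rescaling, the part of these shifts in the results was not tested. In bulk tissue, fewer cells of a type and less RNA per cell cannot be told apart.

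As background, Rps27 encodes a zinc-finger protein of the small subunit, and Rps27l is a known target of the transcription factor p53 whose product also takes part in the control of Mdm2, the main p53 antagonist. Rpl22 and Rpl22l1 encode RNA-binding proteins of the large subunit, and the Rpl22 protein is known to hold Rpl22l1 expression down. Rpl3 lies close to the catalytic centre of the ribosome, and Rpl3l is known from adult heart and skeletal muscle. Rpl39 lines the tunnel through which the new protein leaves, and Rpl39l is known from developing sperm. Rpl36a and Rpl36al encode nearly the same large-subunit protein.

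The coding sequences of the Rps27 genes are shown because they decide which reads can be told apart. Rps27 (chr3:90212667-90213648, minus strand, GRCm38) and Rps27l (chr9:66944624-66949522, plus strand) each have 84 codons before the stop codon. Their coding sequences, read from the GENCODE M21 transcripts and printed without the stop codon, matched at 192 of 252 positions (76.2%). The longest identical stretch was 11 bases. A further gene, Rps27rt (chr9:114982366-114982739, minus strand), is a retrogene, a copy made from messenger RNA, and has 1 exon where Rps27 has 4. Its coding sequence matched that of Rps27 at all 252 positions, and the annotated transcripts of both shared an unbroken run of 341 bases. Capitals in the Rps27 and Rps27l lines mark the bases at which those 2 genes differ, and Rps27rt, set against Rps27, has none.
Rps27: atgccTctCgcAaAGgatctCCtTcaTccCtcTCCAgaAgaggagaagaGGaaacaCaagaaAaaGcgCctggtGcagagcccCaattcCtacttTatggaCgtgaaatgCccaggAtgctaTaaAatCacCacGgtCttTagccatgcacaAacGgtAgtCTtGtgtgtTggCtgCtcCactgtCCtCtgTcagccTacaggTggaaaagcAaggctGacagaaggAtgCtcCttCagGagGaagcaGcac
Rps27l: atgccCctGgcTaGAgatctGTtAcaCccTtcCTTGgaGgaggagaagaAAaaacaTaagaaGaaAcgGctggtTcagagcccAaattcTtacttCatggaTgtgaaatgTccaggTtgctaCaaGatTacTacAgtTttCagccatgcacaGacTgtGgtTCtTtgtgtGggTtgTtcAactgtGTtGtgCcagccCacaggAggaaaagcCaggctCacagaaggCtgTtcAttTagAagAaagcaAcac
Rps27rt: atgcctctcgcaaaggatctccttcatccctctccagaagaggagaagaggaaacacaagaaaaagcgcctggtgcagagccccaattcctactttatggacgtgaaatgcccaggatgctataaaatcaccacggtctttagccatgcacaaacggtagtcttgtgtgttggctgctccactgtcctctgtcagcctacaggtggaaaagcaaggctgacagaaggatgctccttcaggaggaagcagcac

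The Rpl22 pair is shown because the shares of its paralog did not overlap between the groups. Rpl22 (chr4:152324436-152334082, plus strand) has 128 codons and Rpl22l1 (chr3:28805508-28807424, plus strand) has 122. Bases 1 to 150 of each coding sequence are printed, counted from the start codon, and capitals mark bases that differ or have no counterpart in the alignment. The whole coding sequences matched at 66.9% of 384 aligned positions, with a longest identical stretch of 26 bases.
Rpl22: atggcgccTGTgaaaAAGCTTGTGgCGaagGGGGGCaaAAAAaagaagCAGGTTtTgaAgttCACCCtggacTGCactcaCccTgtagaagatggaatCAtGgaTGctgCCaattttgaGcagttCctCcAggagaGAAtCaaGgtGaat
Rpl22l1: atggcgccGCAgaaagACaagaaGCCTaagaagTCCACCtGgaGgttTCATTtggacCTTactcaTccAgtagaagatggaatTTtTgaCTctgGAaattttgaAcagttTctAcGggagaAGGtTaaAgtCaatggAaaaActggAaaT

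The other pairs were closer or farther in sequence without sharing long stretches. Rpl3 (chr15:80077781-80083406, minus strand) and Rpl3l (chr17:24727826-24736143, plus strand) matched at 73.0% of aligned coding positions. Rpl39 (chrX:37082518-37085222, minus strand) and Rpl39l (chr16:10170197-10174911, plus strand) matched at 84.97%, and Rpl36a (chrX:134585654-134588062, plus strand) and Rpl36al (chr12:69182734-69184067, minus strand) at 87.7%. The longest identical stretches in these pairs were 22, 38 and 24 bases. Reads are shared more easily with pseudogenes than within a pair. Identical runs of at least 100 bases with another annotated gene were found for Rps27 (2 rows of the table), Rpl3 (7 rows), Rpl36a (2 rows), Rpl36al (1 row), Rpl22l1 (1 row) and Rpl39 (1 row), and for 0 rows of Rps27l, Rpl22, Rpl3l and Rpl39l. The summed level of those rows was 17.8% to 23.1% of the Rpl3 level, 20.96% to 25.2% of the Rpl36a level and 13.1% to 18.6% of the Rpl36al level in the 8 libraries. For Rps27 it ranged from 20.1% to 184%, so how reads were divided between near-identical copies is uncertain for this gene above all. Other annotated rows overlapped Rpl22 (9430083M05Rik, on the opposite strand, at 0.193 to 0.452 TPM), Rpl3 (Snord83b, Snord43 and LOC115488570) and Rpl39 (Snora69), each at most 10.02 TPM.

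The levels of the 10 genes spanned more than 3 orders of magnitude. In control, Rpl3 was the most abundant, at 1101 to 1161 TPM, and ranked 31st of 85 ribosomal protein genes by mean level. Rps27 (248 to 786 TPM), Rpl36a (563 to 599.95 TPM) and Rpl39 (559 to 586 TPM) followed, with ranges that overlapped each other. The Rps27 range, through control replicate 4, also took in that of Rpl36al. Below these, Rpl36al (308 to 339 TPM), Rpl22 (211 to 217 TPM), Rps27l (172 to 202 TPM) and Rpl22l1 (154 to 171 TPM) followed in this order without overlap. Rpl3l (0.322 to 0.754 TPM) and Rpl39l (0.0670 to 0.470 TPM) were the lowest, and their ranges overlapped. In cKO the order of Rps27l and Rpl22 was turned: Rps27l ran from 243 to 289 TPM and Rpl22 from 201 to 219 TPM.

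**Figure D1:**
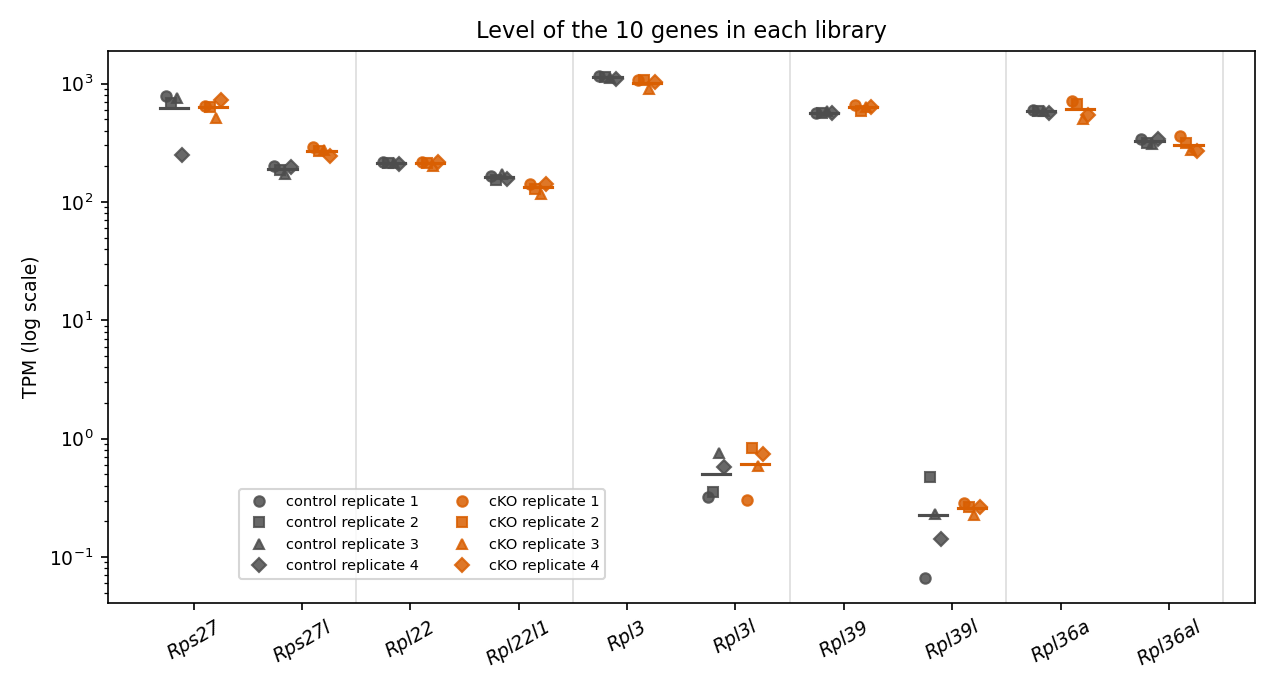
TPM of the 10 genes (log scale) in 4 control libraries (grey) and 4 cKO libraries (orange); each symbol is a replicate number and each line a group mean. Rpl3l and Rpl39l lie under 1 TPM in all 8 libraries, Rps27l is higher and Rpl22l1 lower in every cKO library than in every control library, and Rps27 in control replicate 4 lies apart at 248 TPM.

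Of the 10 genes, 8 reached a mean of 1 TPM and were tested with limma across 15541 rows. Rps27l rose and Rpl22l1 fell at an adjusted p under 0.05, and the other 6 tested genes did not pass. Over all tested rows, 6.4% were called, 2.16% higher and 4.23% lower in cKO. The groups did not overlap for 3 of the 8 tested genes, Rps27l, Rpl22l1 and Rpl3, where 15.6% of all tested rows did not overlap (5.33% higher and 10.3% lower in cKO, against 1 and 2 of the 8 genes). The median log2 change of the 8 was 0.02, beside -0.02 for all tested rows. Changes are on the log2(TPM + 1) scale.

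Rps27l was higher in every cKO library. The control libraries 1 to 4 held 202, 187, 172 and 197 TPM, and the cKO libraries 1 to 4 held 289, 271, 276 and 243 TPM. The lowest cKO library lay above the highest control library. The mean rose from 189 ± 13.0002 in control to 269.8 ± 19.4 TPM in cKO (SD, n = 4). The fitted log2 difference was 0.51 (SE 0.0669, limma adjusted p = 0.00359). Rps27l kept its call under all 18 alternative limma fits, with a log2 change between 0.46 and 0.57. Measured against the median of the 75 other ribosomal protein genes of the same library, which does not depend on library scaling, the change was 0.49 (exact permutation p = 0.0286, the smallest possible with 4 against 4 libraries).

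Set beside 35 other p53 targets, Rps27l had a log2 change below the median of the list. Of these 35 genes, 24 were called higher and 0 lower, with a median log2 change of 0.57. The list was written with earlier results of these data known and lends no independent support. The change was larger than that of Rps27l in 20 of them and smaller in 15. Cdkn1a, which encodes the cell cycle inhibitor p21, had the largest change, from 29.9 to 174 TPM (log2 change 2.50, limma adjusted p = 6.53e-06). Bbc3, which encodes the pro-apoptotic protein Puma, stood next above Rps27l (0.54, adjusted p = 0.0203). Gdf15, a secreted stress factor, stood next below and did not pass (0.42, limma adjusted p = 0.297). In control, Rps27l had a higher mean level than each of the 35, of which the highest was the cyclin gene Ccng1 at 121 TPM. In cKO the Ccng1 mean of 295 TPM lay above that of Rps27l. The Rps27l gain of 80.4 TPM ranked 3rd when this gene was placed among the 35.

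**Figure D2:**
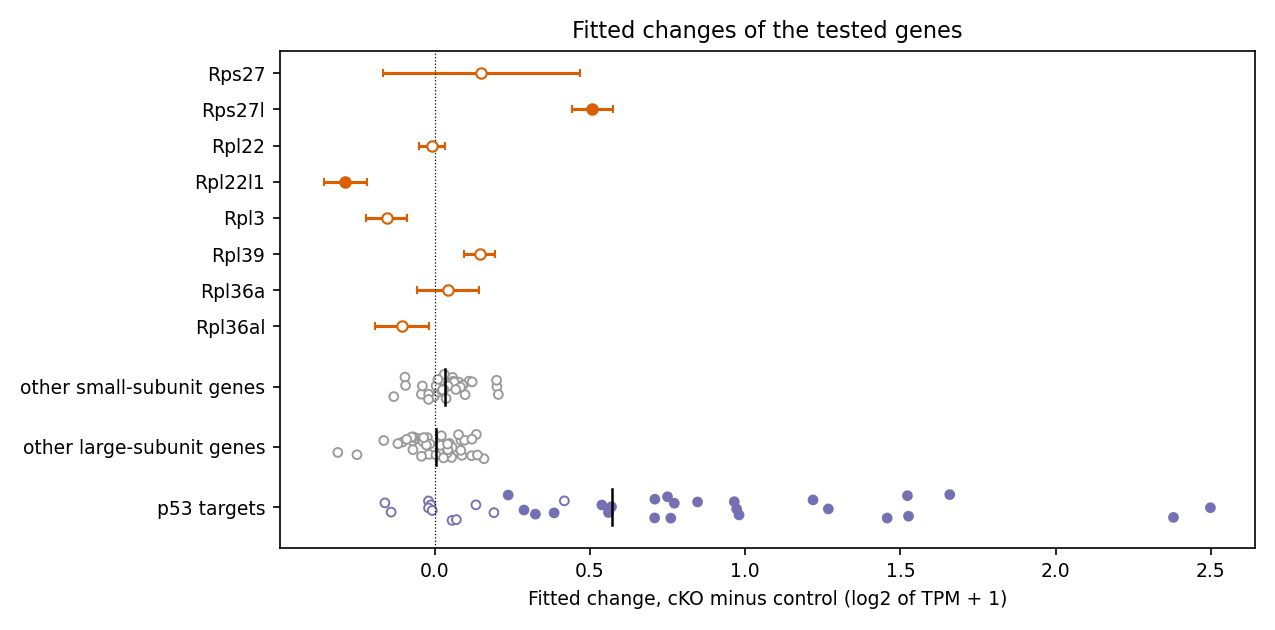
Fitted change between cKO and control, in log2 units of TPM + 1, for the 8 tested genes (orange, with standard errors) and for each other ribosomal protein gene and p53 target (circles, with a black line at the median of each list). Filled symbols passed an adjusted p of 0.05; among the ribosomal genes these are Rps27l (0.51) and Rpl22l1 (-0.29).

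The sequence near the first exon of Rps27l is shown because this gene rose with the p53 targets. RefSeq start windows of 300 bases (around an annotated transcript start, GRCm38.p6) were at hand for 9 of the 10 genes and were searched for the consensus decamer of p53 response elements, which reads the same on both strands. It occurred in 8.36% of all 32851 windows, and 2 or more matches occurred in 0.359%. Of the 12 windows of these genes, that of Rps27 held 1 match, which overlaps its start codon, and 1 of the Rps27l windows held 2. Both Rps27l matches (capitals, chr9:66946188-66946330, plus strand) lie in intron 1 (chr9:66946181-66946830). They begin 28 and 131 bases downstream of the A of the start codon, so they are not adjacent. The other Rps27l window (chr9:66945836-66946135) held 0. A match of letters does not show binding, and a part of these matches in the rise of Rps27l was not tested.
Rps27l intron 1: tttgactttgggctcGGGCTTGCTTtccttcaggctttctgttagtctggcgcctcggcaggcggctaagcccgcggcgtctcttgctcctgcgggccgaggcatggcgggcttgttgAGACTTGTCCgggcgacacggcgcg

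Rps27, the widely expressed partner, varied more within control than between groups. The control libraries held 786, 683, 748 and 248 TPM, and the cKO libraries held 647, 631, 511 and 727 TPM. The groups overlapped, with control replicate 4 below all other libraries and cKO replicate 4 among the other 3 controls, and the log2 change was 0.15 (SE 0.317, limma adjusted p = 0.818). Without that library the change turned to -0.24 (adjusted p = 0.239). Its identical copy Rps27rt was highest among controls where Rps27 was lowest, and lowest among cKO libraries where Rps27 was highest. With all libraries both fitted changes were positive. Rps27rt stood at 138, 159.9, 133 and 438 TPM in control and at 397, 397, 377 and 229.9 TPM in cKO (log2 change 0.85, limma adjusted p = 0.175). Without control replicate 4 it was called higher (1.25, adjusted p = 0.0117). In that control library Rps27rt took 63.8% of the sum of both genes, against 15.0% to 19.0% in the other 3 controls and 24.0% to 42.5% in cKO. The sum of both varied less, with 924, 843, 881 and 687 TPM in control and 1044, 1028, 887 and 957 TPM in cKO (979 ± 71.6 against 834 ± 103 TPM, SD, n = 4, exact permutation p = 0.0571).

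**Figure D3:**
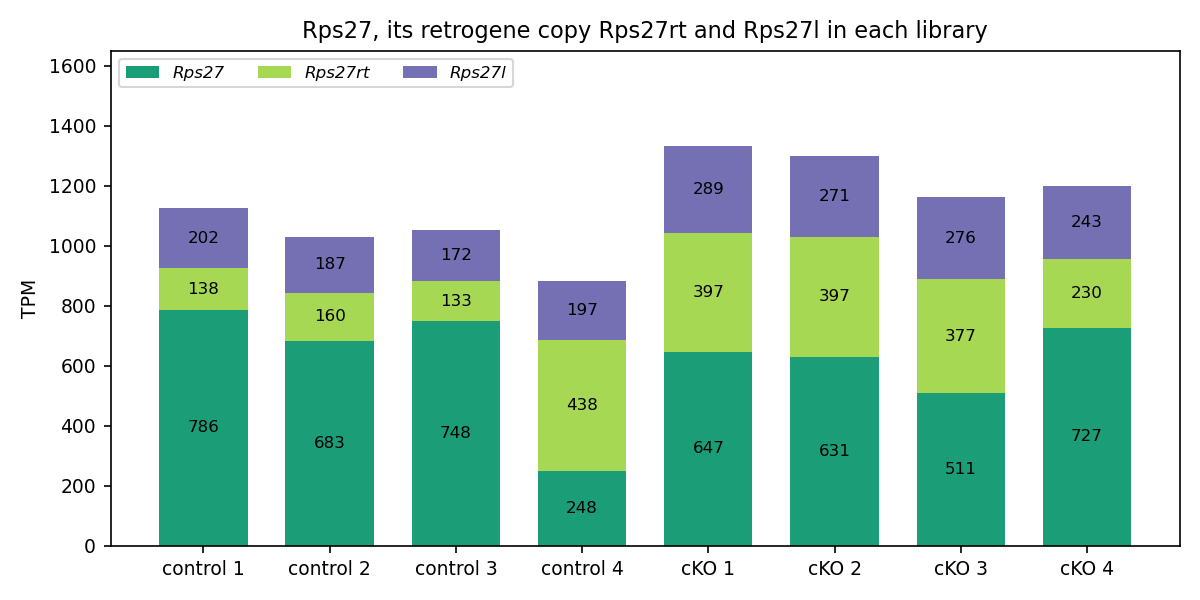
Stacked TPM of Rps27 (dark green), Rps27rt (light green) and Rps27l (purple) in each library, with each value printed in its bar. Control replicate 4 has the lowest Rps27 (248 TPM) beside the highest Rps27rt (438 TPM), while its Rps27l (197 TPM) lies among the other controls.

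The share of Rps27l in its pair was set apart in the same control library. Rps27l made up 20.4%, 21.5%, 18.7% and 44.2% of the pair in control and 30.9%, 30.1%, 35.1% and 25.04% in cKO. The cKO libraries lay above 3 of the controls and below the fourth. The means were 30.3% ± 4.13 in cKO and 26.2% ± 12.1 in control (SD, n = 4). The difference of 4.07 percentage points did not pass (exact permutation p = 0.543). Without control replicate 4 the difference was 10.1 points (exact permutation p = 0.0571, 35 assignments). Leaving out control replicates 1, 2 or 3 in turn gave 2.14, 2.50 and 1.57 points, and leaving out cKO replicate 3 gave 2.46 points (exact permutation p from 0.743 to 0.857). With Rps27rt counted as Rps27, an alternative chosen after seeing the data, the share was 17.9%, 18.2%, 16.3% and 22.3% in control and 21.7%, 20.9%, 23.7% and 20.2% in cKO. The difference was then 2.96 points (exact permutation p = 0.114), and 4.16 points without control replicate 4 (exact permutation p = 0.0286). A shift in the share was not shown with all 8 libraries.

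Rpl22 and Rpl22l1 parted more clearly. Rpl22 was the steadiest of the 10 genes in control, with 217, 212, 215 and 211 TPM, and had 219, 215, 201 and 215 TPM in cKO. The groups overlapped, and the log2 change of -0.01 (SE 0.0424, limma adjusted p = 0.928) turned to between 0.019 and 0.055 under the 3 other scalings of the libraries. Rpl22l1 held 166, 154, 171 and 155 TPM in control and 142, 129.7, 117 and 142 TPM in cKO. Every cKO library lay below every control library. The mean fell from 162 ± 8.01 in control to 133 ± 12.1 TPM in cKO (SD, n = 4). The fitted log2 difference was -0.29 (SE 0.0685, limma adjusted p = 0.0382).

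This call of Rpl22l1 was a narrow one. It was lost after quantile normalization (log2 change -0.23, limma adjusted p = 0.0836), median-ratio scaling (-0.26, adjusted p = 0.0541) and rescaling without mitochondrial and globin rows (-0.25, adjusted p = 0.0505), and without any 1 library other than cKO replicate 4 (adjusted p from 0.0550 to 0.103). The share of Rpl22l1 in its pair does not depend on how libraries are scaled. It was 43.3%, 42.2%, 44.3% and 42.5% in control and 39.3%, 37.7%, 36.7% and 39.8% in cKO, without overlap. The mean went from 43.1% ± 0.945 to 38.4% ± 1.43 (SD, n = 4), a difference of -4.68 percentage points (exact permutation p = 0.0286). Shares were tested for 5 pairs, and this p was not adjusted for the 5 tests. It was the smallest of them and also the smallest that 4 against 4 libraries allow, which any full separation of the groups gives. Leaving out any 1 library gave -5.16 to -4.13 points.

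**Figure D4:**
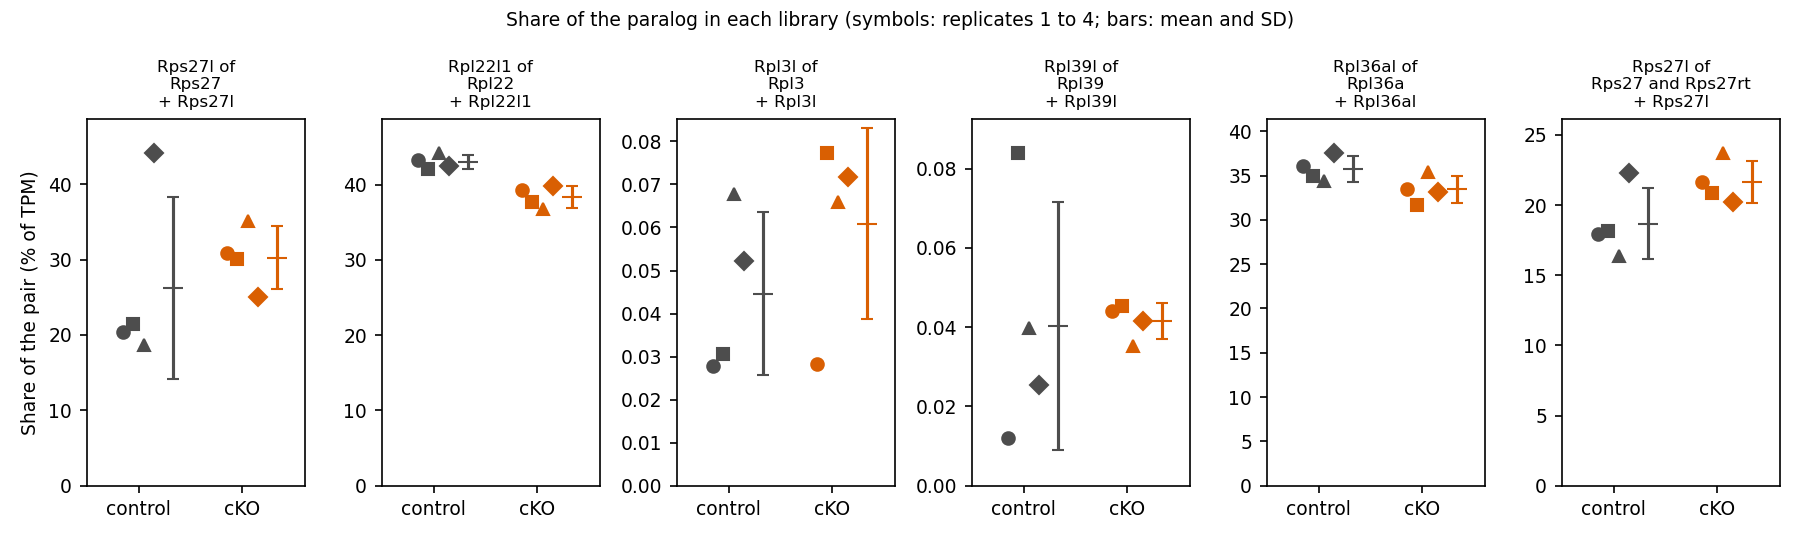
Share of each paralog in the summed TPM of its pair, by library (symbols mark replicates 1 to 4, bars the mean and SD of 4 libraries), with a last panel that counts Rps27rt as Rps27. The axes start at 0 and differ in range: the Rpl22l1 shares separate the groups, the Rpl3l and Rpl39l shares stay under 0.1%, and control replicate 4 stands apart at 44.2% in the first panel.

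Rpl3 was the most abundant of the 10 genes, and its muscle paralog was under 1 TPM in every library. Rpl3 held 1161, 1142, 1111 and 1101 TPM in control and 1081, 1065, 894 and 1027 TPM in cKO. All cKO values were below all control values, but the change of -0.15 (SE 0.0656) did not pass (limma adjusted p = 0.189, range over the alternatives 0.16 to 0.369). Rpl3l held 0.322, 0.351, 0.754 and 0.575 TPM in control and 0.306, 0.825, 0.590 and 0.738 TPM in cKO. The groups overlapped (exact permutation p = 0.514), and Rpl3l was under the level tested across all genes. Its share of the pair was 0.0609% ± 0.0222 in cKO and 0.0446% ± 0.0189 in control (SD, n = 4, exact permutation p = 0.286). Of 7 skeletal muscle markers, Actn3 and Tnnt3 reached 1 TPM, and Myod1, Myog, Myf5, Myf6 and Myh3 stayed under it in every library. The 7 summed to 6.93 to 8.86 TPM in cKO and 6.04 to 11.2 TPM in control, with overlap.

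Rpl39 and Rpl39l showed a similar gap. Rpl39 held 559, 559, 586 and 562 TPM in control and 652, 582, 636 and 639 TPM in cKO. The groups overlapped by 1 library on each side, and the change of 0.15 (SE 0.05) did not pass (limma adjusted p = 0.116). Rpl39l held 0.0670, 0.470, 0.233 and 0.142 TPM in control and 0.288, 0.264, 0.224 and 0.265 TPM in cKO, with cKO inside the control range (exact permutation p = 0.686). Its share of the pair was 0.0415% ± 0.00451 in cKO and 0.0403% ± 0.0313 in control (SD, n = 4, exact permutation p = 0.943). Of 6 male germ cell markers, Ddx4 and Acr reached 1 TPM, and Dazl, Prm1, Tnp1 and Sycp3 stayed under it in every library. The 6 summed to 3.22 to 4.98 TPM in cKO and 3.39 to 4.76 TPM in control, with overlap.

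Rpl36a and Rpl36al were both abundant. Rpl36a held 599.95, 582, 589 and 563 TPM in control and 709, 673, 502 and 544 TPM in cKO, so that the cKO libraries spread to both sides of the controls (log2 change 0.04, SE 0.101, limma adjusted p = 0.838). Rpl36al held 339, 313, 308 and 339 TPM in control and 357, 312, 275 and 269.9 TPM in cKO (-0.10, SE 0.0859, limma adjusted p = 0.506). Both genes were higher in cKO replicates 1 and 2 than in 3 and 4, and both overlapped between the groups. The share of Rpl36al was 36.1%, 35.0%, 34.4% and 37.6% in control and 33.5%, 31.7%, 35.4% and 33.1% in cKO. The difference of -2.32 percentage points did not pass (exact permutation p = 0.0857).

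The 3 further ribosomal protein paralogs, Rpl7l1, Rps4l and Rpl10l, were examined for comparison. Rpl10l, known from testis, was listed at 0 in all 8 libraries. Rpl7l1 stood at 60.1 ± 4.41 TPM in cKO and 64.9 ± 5.07 TPM in control (SD, n = 4, limma adjusted p = 0.379). Rps4l stood at 209.9 ± 17.1 and 258 ± 26.1 TPM (SD, n = 4) without overlap. Its log2 change of -0.30 did not pass (limma adjusted p = 0.055). The Rps4l symbol stands on 2 rows, and these values are those of a single row. Identical runs shared with other genes were not searched for these 3 paralogs, so how far they share reads is unknown.

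The rest of the ribosome gives the scale of these differences. Of 75 other ribosomal protein genes, all tested, 46 had a positive and 29 a negative log2 change, and the median was 0.03. Over all tested rows, 44.2% of changes were positive. The balance of the 75 genes turned to 30 positive and 45 negative (median -0.010) without cKO replicate 1, and it was 57 to 18 without cKO replicate 3. It was 56 to 19 after quantile normalization, 54 to 21 after median-ratio scaling and 55 to 20 after rescaling without mitochondrial and globin rows. With limma 0 were called, beside 6.4% of all tested rows, and 8 had an unadjusted p under 0.05. The 3 with the smallest p were Rps28 (0.21, limma adjusted p = 0.0747), Rps29 (0.20, adjusted p = 0.122) and Rps20 (-0.13, adjusted p = 0.161). The 32 small-subunit genes had a median of 0.03 and the 43 large-subunit genes of 0.00, and both medians were below 0 without cKO replicate 1. All 85 ribosomal protein genes together took 7.24% to 8.58% of TPM in cKO and 7.69% to 7.96% in control, ranges that overlapped. Within that sum Rps27l went from 0.243% to 0.342% and Rpl22l1 from 0.207% to 0.168%.

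The genes closest in pattern over the 8 libraries were found by Pearson's r of log2(TPM + 1) among 12773 tested genes, as a description without a test. For Rps27l they were Mdm2 (r = 0.98), Prepl (0.98) and Abhd4 (0.98). Mdm2, which encodes the ubiquitin ligase of p53, was called higher (log2 change 0.24, limma adjusted p = 0.0154), as was Abhd4, a lipid hydrolase gene (0.29, adjusted p = 0.013), while Prepl did not pass (0.14, limma adjusted p = 0.106). For Rpl22l1 they were Tedc1 (r = 0.98), the tubulin gene Tuba1c (0.98) and the histone chaperone gene Nasp (0.98). Tuba1c (-0.26, limma adjusted p = 0.0282) and Nasp (-0.40, adjusted p = 0.0184) were called lower, and Tedc1 did not pass (-0.25, limma adjusted p = 0.0729). For Rpl36al they were Yipf1 (0.97), Psmc6 (0.95) and Snrpc (0.95). For Rpl3l they were Clec1b (0.94), Prkcz2 (0.94) and Slc15a2 (0.93), and for Rpl39l Bex1 (0.91), Mir7058 (0.90) and Stmn4 (0.88). The last 2 paralogs lay under 1 TPM in every library. The highest of 12773 values of r over 8 libraries can be large by chance. For Rps27l and Rpl22l1, r also takes in the difference between the groups.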

How the data were processed

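RNA sequencing libraries of ventricular tissue in 4 cKO and 4 control replicates were compared; groups and replicate numbers came from the sample titles. The deposited values are TPM made by the authors, per the file headers. The submitters' processing notes name FastQC, Trim Galore 0.6.7, HISAT2 2.2.1, StringTie 2.2.1, featureCounts, DESeq2 and the build GRCm38, without saying which made the TPM values; the handling of reads that fit several places and of strand is not given in the sources used here. TPM keeps no depth. Rows with a mean of at least 1 TPM (15541 of 52778) were fitted as log2(TPM + 1) in limma 3.58.1 (R 4.3.3; lmFit, eBayes with trend, group as the only term, two-sided), with Benjamini-Hochberg adjustment over all of them and a threshold of 0.05. Shares are 100 × paralog / (paralog + partner) in TPM per library, tested by an exact two-sided permutation over 70 assignments. On simulated data for 15541 genes with 200 changed, 98.6% of changes of 0.75 and 99.8% of changes of 1.5 were recovered. On average over 5 draws, 6.47% of calls were false. The changes were placed only in rows of higher level, with normally distributed noise. The fitted changes of the tested members were all smaller than 0.75, and the recovery of such changes was not simulated. Coding sequences came from GENCODE M21 and were aligned with Biopython 1.88. Where several rows carry a symbol, the primary-chromosome row with the highest mean was used.

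Named genes were the 10 members, the targeted gene, 3 other paralogs, the 3 other ribosomal protein genes with the smallest p, the p53 targets with the largest change and next to Rps27l, and the 3 genes nearest in pattern to each paralog, and rows overlapping a member. Rps27rt was added after its values were seen. The members and lists were chosen with earlier results of these data known. Alternatives were pseudocounts of 0.1 and 5, other filters, 3 other scalings, no trend, array weights, a replicate block, and leaving out each library; counting Rps27rt or near-identical rows with their parent and scaling to the median ribosomal gene were added after seeing the data.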

Additional observations from a re-analysis of the deposited data

Results flagged for a closer look

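In groups of 4 libraries, the gap of a highest or lowest value to the next was taken as a part of the group's range. A value was marked when this part exceeded Dixon's critical value, and 4 of 38 groups met this. Chance marks about 5% of independent groups. Rps27rt was added after its values were seen, and levels and shares hold the same genes, so the count cannot be set against that rate. The share of Rps27l was 44.2% in control replicate 4, against 18.7% to 21.5% in the other controls. In the same library Rps27rt stood highest among controls at 438 TPM. Among cKO libraries, replicate 4 had the lowest Rps27rt level at 229.9 TPM. Rpl39 in control replicate 3 stood at 586 TPM, above 559 to 562 TPM in the other controls, a small distance in absolute terms.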

How the results depend on the processing

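Rps27l kept its call under all 18 alternative limma fits, and the number of called p53 targets stayed between 21 and 24. Its change against the median ribosomal gene, which is no limma call, had an exact permutation p of 0.0286. The number of called members, 2 as reported above, was 1 without a filter on low values, after quantile normalization, median-ratio scaling or rescaling without mitochondrial and globin rows, without the trend and with the replicate block, and ranged from 1 to 2 when single libraries were left out; each time the call of Rpl22l1 was the one lost. Without a filter (adjusted p = 0.111), without the trend (0.0695) and with the replicate block (0.0827) Rpl22l1 did not pass limma's test. Replicate numbers showed no sign of pairing the libraries. Deviations of same-numbered libraries correlated between -0.09 and 0.07, and those of differently numbered libraries between -0.13 and 0.12. Such correlations cannot exclude a pairing. The Rpl22l1 share stayed at -4.68 points with the replicate block, whose exact test cannot go below 0.125, and gave that p. Of 75 other ribosomal protein genes, 1 was called after rescaling without mitochondrial and globin rows (Rps28, 0.24), and between 0 and 1 when single libraries were left out (Rpl29, -0.36, without cKO replicate 1; Rpl17, -0.46, without control replicate 3).

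Signs turned only for changes that did not pass. Rpl22 went to 0.055 after quantile normalization, 0.019 after median-ratio scaling and 0.027 after rescaling. With single libraries left out, the log2 change of Rps27 ran from -0.24 (without control replicate 4) to 0.31, of Rpl22 from -0.023 to 0.018, of Rpl36a from -0.036 to 0.13 and of Rpl39l from -0.017 to 0.14. The share of Rpl39l went to -0.10 as a log2 ratio and ran from -0.00815 to 0.0159 points when single libraries were left out. The cause of these moves was not tested. Rps27rt passed only without control replicate 4, and Rps4l only with a mean of at least 5 TPM (limma adjusted p = 0.0474) and without cKO replicate 4 (0.041). The reads behind each value are unknown, so it cannot be said what counting error limits for Rpl3l and Rpl39l.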
